A study of Mus musculus with 10 samples.

Results

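Transforming growth factor beta (TGF-beta) signaling genes were examined in cardiomyocyte RNA from infarcted mouse hearts. The group held 10 genes, namely the ligands Tgfb1, Tgfb2 and Tgfb3, the receptors Tgfbr1, Tgfbr2 and Tgfbr3, and the intracellular effectors Smad2, Smad3, Smad4 and Smad7. They were chosen by gene symbol from the 51789 identifiers of the count table, and all 10 were present and passed the filter on low counts. Cardiomyocytes had been isolated on day 4 after myocardial infarction (MI), brought about by permanent ligation of a coronary artery. TgGRK5-MI mice carried a transgene that overexpresses the G protein-coupled receptor kinase GRK5 in cardiomyocytes, and NLC-MI mice were their littermates without the transgene. Each group had 5 libraries, both groups had been infarcted, and no sham-operated library was analysed here. The promoter of the transgene, and the age and sex of each of these 10 mice, are not given in the sources used here, while the study's work on cardiac function used young adult mice of both sexes. The question was whether RNA of the TGF-beta pathway differed between TgGRK5-MI and NLC-MI cardiomyocytes.

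TGF-beta ligands are secreted in a latent complex and act, once released, through a serine/threonine kinase complex of the type II receptor TGFBR2 and the type I receptor TGFBR1. The active type I receptor phosphorylates SMAD2 and SMAD3, which join SMAD4 and regulate genes in the nucleus, while SMAD7 is an inhibitory SMAD that the pathway itself induces. In the infarcted heart the pathway is known for turning fibroblasts into matrix-producing myofibroblasts, and it also acts on cardiomyocytes and leukocytes.

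Grk5, the gene of the transgene's protein, was higher in TgGRK5-MI than in NLC-MI, at 552 to 1700.4 against 46.5 to 73.1 CPM (counts scaled to library size with edgeR's TMM factors), with no overlap of the groups (log2 fold change 4.34, edgeR adjusted p = 0.000245). Libraries held 7968779 to 23381527 counts, and the least counted member in any library still had 158 counts. Of the 15232 genes tested with edgeR's quasi-likelihood test, 8 were higher and 4 lower in TgGRK5-MI at an adjusted p under 0.10, which is 0.0788% of genes, and 586 genes (3.85%) had an unadjusted p under 0.05. The defining cardiomyocyte markers Myh6, Tnnt2, Tnni3, Actc1, Ryr2 and Pln had counts in every library, and so did all listed fibroblast, endothelial, leukocyte and mural markers. In such bulk RNA, fewer cells of a type and less RNA per cell cannot be told apart.

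None of the 10 members differed between TgGRK5-MI and NLC-MI at an adjusted p under 0.10, and each had an adjusted p of 1 (edgeR). At an unadjusted p under 0.05 edgeR also called 0 of 10, beside 3.85% of all genes, of which 1.77% were higher and 2.08% lower. DESeq2 called 0 of 10 at an adjusted p under 0.10, beside 0.397% of the 17398 genes it gave an adjusted p. At an unadjusted p under 0.05 it called 2 of 10, Smad4 and Smad7, both lower, beside 2.97% of the 28443 genes it gave a p. Those 28443 include low-count genes that the filter for edgeR removed, so 2.97% is not a share of genes counted as well as the members. The CPM ranges of the groups overlapped for every member, while 1.00% of all genes had groups that did not overlap. The log2 fold change was above 0 for 3 members and below 0 for 7, with a median of -0.13 beside 0.0013 over all genes tested. The 4 members with the lowest p, Smad7, Smad4, Tgfbr3 and Smad3, all had lower means in TgGRK5-MI.

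**Figure D1:**
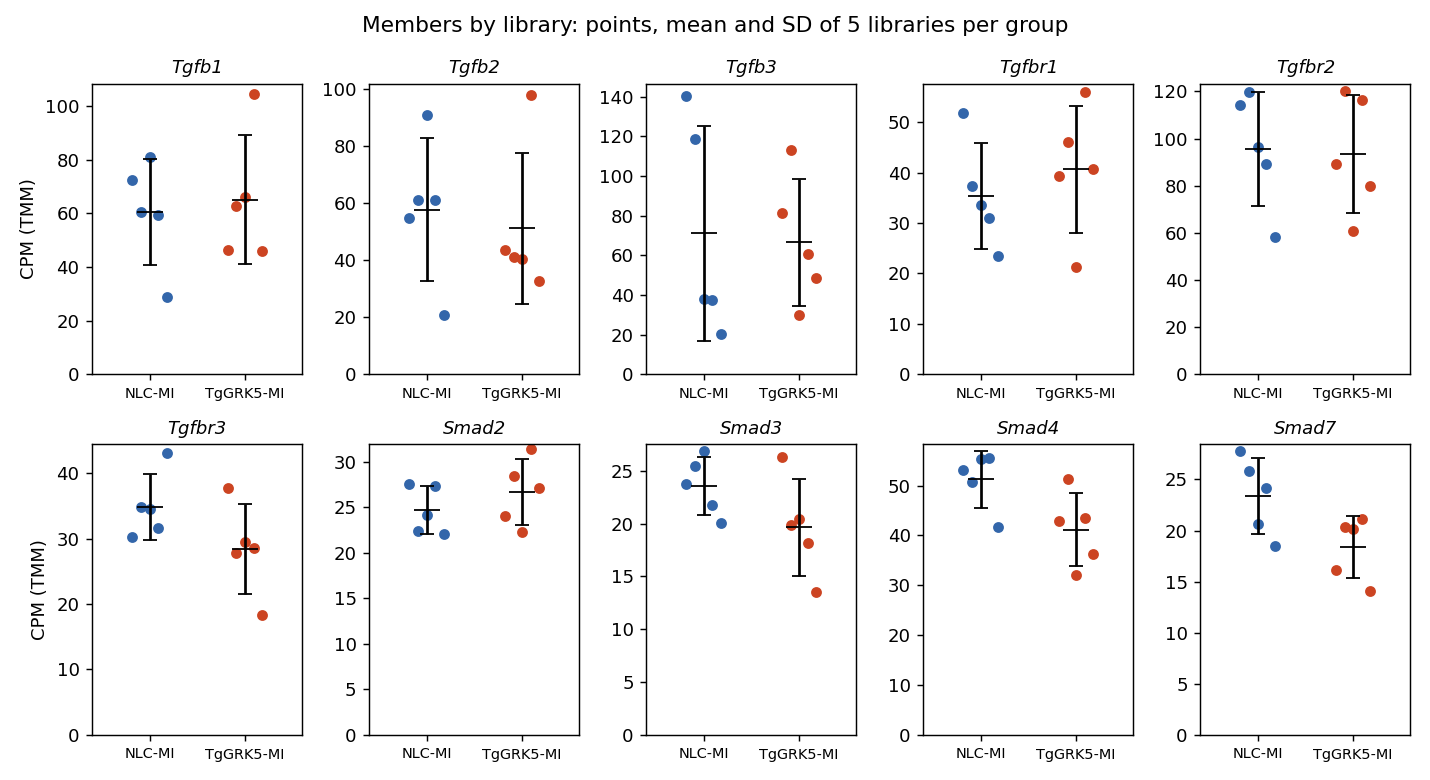
CPM of each of the 10 members (vertical axis, from 0) in the 5 NLC-MI libraries (blue) and the 5 TgGRK5-MI libraries (red); each point is a library, and the bar gives the mean and SD of the group. The points of the groups overlap for every gene, and Tgfb3 has the widest scatter, from 20.4 to 140.5 CPM in NLC-MI.

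Gene positions are those of GRCm38. Among the ligands, Tgfb1 (ENSMUSG00000002603, chromosome 7 from 25687002 to 25705077 on the plus strand) encodes the isoform made by many cell types, platelets and leukocytes included. Tgfb1 was at 72.3, 60.7, 81.0, 59.4 and 28.9 CPM in NLC-MI replicates 1 to 5 and at 46.4, 62.8, 66.2, 105 and 45.9 CPM in TgGRK5-MI replicates 1 to 5. The highest library was thus in TgGRK5-MI and the lowest in NLC-MI, and the other libraries of both groups were intermixed. The NLC-MI mean was 60.5 ± 19.7 CPM (SD, n = 5) and the TgGRK5-MI mean 65.2 ± 23.9 CPM (SD, n = 5), a log2 fold change of 0.11 with a 95% interval from -0.52 to 0.73 (edgeR unadjusted p = 0.713, two-sided exact permutation p = 0.746). Leaving out TgGRK5-MI replicate 4 turned it to -0.13, and leaving out NLC-MI replicate 5 turned it to -0.08.

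Tgfb2 (ENSMUSG00000039239, chromosome 1 from 186622792 to 186705989 on the minus strand) encodes a ligand that binds TGFBR2 weakly without a co-receptor. Tgfb2 was at 54.8, 61.1, 90.9, 61.1 and 20.7 CPM in NLC-MI and at 43.6, 41.1, 40.6, 98.1 and 32.8 CPM in TgGRK5-MI. In TgGRK5-MI, replicate 4 stood well above the other 4 libraries, and those 4 lay between the lowest NLC-MI library and the rest of NLC-MI. This gave a log2 fold change of -0.17 with a 95% interval from -0.98 to 0.64 (edgeR unadjusted p = 0.65, exact permutation p = 0.778). Without TgGRK5-MI replicate 4 it was -0.54 (unadjusted p = 0.121), and without NLC-MI replicate 3 it was 0.048.

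Tgfb3 (ENSMUSG00000021253, chromosome 12 from 86056745 to 86079041 on the minus strand), the isoform known for its expression by mesenchymal cells, was at 140.5, 119, 38.1, 37.4 and 20.4 CPM in NLC-MI and at 81.2, 113, 29.6, 60.6 and 48.6 CPM in TgGRK5-MI. NLC-MI held 2 high and 3 low libraries, and TgGRK5-MI spread between them. The means were 71.0 ± 54.5 CPM (SD, n = 5) and 66.6 ± 32.0 CPM (SD, n = 5), with a log2 fold change of -0.09 and a 95% interval from -1.21 to 1.02 (edgeR unadjusted p = 0.859, exact permutation p = 0.817). Its sign depended on single libraries, since it was 0.30 without NLC-MI replicate 1, 0.17 without NLC-MI replicate 2, 0.089 without TgGRK5-MI replicate 3 and 0.0026 without TgGRK5-MI replicate 5. The interval spans a fold of 0.433 to 2.03, so these libraries leave the difference in Tgfb3 undetermined within that range.

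The promoters of Tgfb1 and Tgfb2 and of Tgfbr1 and Tgfbr2, pairs with a high Pearson's r across libraries as described further on, are shown to set their sequences side by side. Each is the 250 bases before the gene's start, 5′ to 3′ on the gene's own strand, from RefSeq on GRCm38.p6. They lie at chr7:25686752-25687001 on the plus strand for Tgfb1, chr1:186705990-186706239 on the minus strand for Tgfb2, chr4:47352972-47353221 on the plus strand for Tgfbr1 and chr9:116175364-116175613 on the minus strand for Tgfbr2. Capitals mark matches, on either strand, to the GC box GGGCGG and to the SMAD box CAGAC, letters that do not overlap each other in these windows.
Tgfb1: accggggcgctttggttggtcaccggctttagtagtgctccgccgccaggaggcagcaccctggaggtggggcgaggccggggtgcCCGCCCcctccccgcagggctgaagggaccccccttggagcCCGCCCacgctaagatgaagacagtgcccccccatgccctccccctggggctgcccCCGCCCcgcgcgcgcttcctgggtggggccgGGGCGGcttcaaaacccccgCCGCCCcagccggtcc
Tgfb2: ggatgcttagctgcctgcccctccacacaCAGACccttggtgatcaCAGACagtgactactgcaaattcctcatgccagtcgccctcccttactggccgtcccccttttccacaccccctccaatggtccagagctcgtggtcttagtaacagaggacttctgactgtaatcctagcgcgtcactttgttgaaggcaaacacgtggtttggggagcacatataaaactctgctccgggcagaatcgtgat
Tgfbr1: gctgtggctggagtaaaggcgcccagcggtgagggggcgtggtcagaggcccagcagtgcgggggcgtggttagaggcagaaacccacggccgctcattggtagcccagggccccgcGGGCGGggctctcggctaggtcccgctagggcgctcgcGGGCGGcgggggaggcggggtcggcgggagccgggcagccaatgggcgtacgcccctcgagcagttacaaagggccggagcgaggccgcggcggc
Tgfbr2: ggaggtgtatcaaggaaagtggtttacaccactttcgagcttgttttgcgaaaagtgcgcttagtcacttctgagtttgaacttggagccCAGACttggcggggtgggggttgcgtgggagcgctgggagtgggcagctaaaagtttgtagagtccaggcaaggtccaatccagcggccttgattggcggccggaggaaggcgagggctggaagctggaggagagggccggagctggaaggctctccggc

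The Tgfb1 window held 5 GC boxes and no SMAD box, and the Tgfbr1 window held 2 GC boxes and no SMAD box. The Tgfb2 window held 2 SMAD boxes and the Tgfbr2 window 1, and neither held a GC box. The 250 bases before Smad3, not printed, held 2 GC boxes. Among 32851 windows of this length, 32.7% held a GC box and 42.2% a SMAD box, so both are common letters. The SMAD palindrome GTCTAGAC, which is in 0.167% of windows, and the AP-1 site TGANTCA, which is in 6.75%, had no match in these 5 windows. The window before a further annotated start of Tgfbr1, not printed, held 1 SMAD box and no GC box, so the content for Tgfbr1 depends on the start. Tgfb3 and Tgfbr3 have no window in this set, and windows of Smad2, Smad4 and Smad7 were not used here.

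Of the receptors, none passed either threshold. Tgfbr1 (ENSMUSG00000007613, chromosome 4 from 47353222 to 47414931 on the plus strand), the type I kinase that phosphorylates SMAD2 and SMAD3, was at 51.8, 37.4, 33.5, 30.97 and 23.4 CPM in NLC-MI and at 39.3, 46.0, 21.2, 55.9 and 40.8 CPM in TgGRK5-MI. TgGRK5-MI held both the highest and the lowest library. The means were 35.4 ± 10.5 CPM (SD, n = 5) and 40.6 ± 12.7 CPM (SD, n = 5), with a log2 fold change of 0.20 and a 95% interval from -0.37 to 0.76 (edgeR unadjusted p = 0.459, exact permutation p = 0.556). Without TgGRK5-MI replicate 3 the log2 fold change was 0.36 (unadjusted p = 0.136).

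Tgfbr2 (ENSMUSG00000032440, chromosome 9 from 116084293 to 116175360 on the minus strand) encodes the type II kinase that binds the ligand first. It was at 114, 119.8, 96.6, 89.4 and 58.1 CPM in NLC-MI and at 89.3, 120.2, 60.8, 117 and 79.9 CPM in TgGRK5-MI. The groups covered almost the same range. Its log2 fold change was -0.03 with a 95% interval from -0.53 to 0.47 (edgeR unadjusted p = 0.885, exact permutation p = 0.889), which spans a fold of 0.69 to 1.38, and its sign turned without NLC-MI replicate 1 or 2 or TgGRK5-MI replicate 3 or 5, reaching 0.078 without TgGRK5-MI replicate 3.

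Tgfbr3 (ENSMUSG00000029287, chromosome 5 from 107106570 to 107289629 on the minus strand) encodes betaglycan, the co-receptor that presents TGF-beta2. It was at 30.3, 34.8, 34.5, 31.6 and 43.2 CPM in NLC-MI and at 37.7, 27.8, 29.6, 28.7 and 18.3 CPM in TgGRK5-MI. All NLC-MI libraries lay above 4 of the 5 TgGRK5-MI libraries, and TgGRK5-MI replicate 1 lay above 4 of the 5 NLC-MI libraries. The means were 34.9 ± 5.04 CPM (SD, n = 5) and 28.4 ± 6.89 CPM (SD, n = 5), with a log2 fold change of -0.30 and a 95% interval from -0.70 to 0.11 (edgeR unadjusted p = 0.137, exact permutation p = 0.119). Without TgGRK5-MI replicate 1 it was -0.43 (unadjusted p = 0.0394, adjusted p = 1, edgeR).

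Among the SMADs, Smad2 (ENSMUSG00000024563, chromosome 18 from 76241580 to 76310963 on the plus strand), a receptor-activated effector, was at 27.6, 22.4, 24.2, 27.4 and 22.1 CPM in NLC-MI and at 24.02, 28.5, 22.3, 31.5 and 27.1 CPM in TgGRK5-MI, with the groups intermixed. Its log2 fold change was 0.11 with a 95% interval from -0.20 to 0.42 (edgeR unadjusted p = 0.459, exact permutation p = 0.373). Smad3 (ENSMUSG00000032402, chromosome 9 from 63646767 to 63757994 on the minus strand), the effector that binds DNA directly, was at 23.7, 25.5, 26.8, 21.7 and 20.1 CPM in NLC-MI and at 26.3, 19.9, 20.4, 18.2 and 13.5 CPM in TgGRK5-MI. TgGRK5-MI replicate 1 was among the high NLC-MI libraries, and the other 4 TgGRK5-MI libraries lay below every NLC-MI library but replicate 5. Smad3 had a log2 fold change of -0.26 with a 95% interval from -0.65 to 0.13 (edgeR unadjusted p = 0.168, exact permutation p = 0.135), and -0.40 without TgGRK5-MI replicate 1 (unadjusted p = 0.0412, adjusted p = 1, edgeR).

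Smad4 (ENSMUSG00000024515, chromosome 18 from 73639009 to 73703780 on the minus strand) encodes the common partner of the receptor-activated SMADs. It was at 53.1, 50.6, 55.4, 55.6 and 41.6 CPM in NLC-MI and at 42.9, 51.2, 32.0, 43.5 and 36.2 CPM in TgGRK5-MI. In NLC-MI 4 libraries stood above all TgGRK5-MI libraries but replicate 2, while NLC-MI replicate 5 lay among those of TgGRK5-MI. The means were 51.3 ± 5.74 CPM (SD, n = 5) and 41.2 ± 7.40 CPM (SD, n = 5). This made a log2 fold change of -0.32 (standard error 0.15, 95% interval from -0.65 to 0.02), with an edgeR unadjusted p of 0.0604, an exact permutation p of 0.0635 and a DESeq2 unadjusted p of 0.0429.

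Smad7 (ENSMUSG00000025880, chromosome 18 from 75367529 to 75395935 on the plus strand), the inhibitory SMAD, had the lowest p of the 10 genes. It was at 27.8, 25.8, 20.7, 24.1 and 18.5 CPM in NLC-MI and at 16.1, 20.3, 20.2, 21.1 and 14.1 CPM in TgGRK5-MI. The 3 highest libraries were from NLC-MI and the 2 lowest from TgGRK5-MI, with the other libraries of both groups between them. The means were 23.4 ± 3.76 CPM (SD, n = 5) and 18.4 ± 3.07 CPM (SD, n = 5), a log2 fold change of -0.35 (standard error 0.17, 95% interval from -0.72 to 0.02). The edgeR unadjusted p was 0.059, the exact permutation p 0.0635, where the smallest that 5 against 5 allows is 0.00794, and the DESeq2 unadjusted p 0.0389. Over 17 alternative settings, Smad4 and Smad7 each stayed below 0, and the unadjusted p was under 0.05 in 4 of them for Smad4 and in 5 for Smad7. The adjusted p was under 0.10 in 0 of them for either gene. The lowest was 0.0227 for Smad4, without TgGRK5-MI replicate 2, and 0.0246 for Smad7, without NLC-MI replicate 5 (edgeR unadjusted p).

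**Figure D2:**
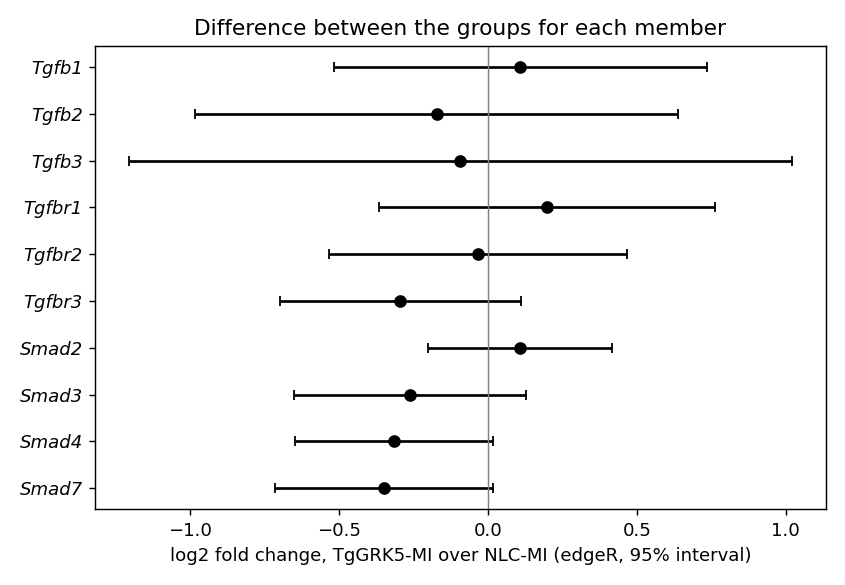
Log2 fold change of TgGRK5-MI over NLC-MI (horizontal axis) for each member, with its 95% interval from edgeR's quasi-likelihood fit of 5 against 5 libraries. Every interval includes 0, with Smad4 (-0.65 to 0.02) and Smad7 (-0.72 to 0.02) nearest to leaving it out.

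Levels were compared between genes as CPM per kilobase of exon, averaged over the 10 libraries. Tgfb3 had the highest mean at 20.3 ± 12.5 CPM per kilobase (SD, n = 10), followed by Tgfb1 at 12.5 ± 4.13, Smad4 at 12.5 ± 2.21, Tgfbr2 at 11.5 ± 2.85 and Tgfb2 at 9.41 ± 4.24. The lower levels were those of Tgfbr1 at 5.82 ± 1.73, Tgfbr3 at 4.83 ± 1.01, Smad7 at 4.62 ± 0.923, Smad3 at 3.90 ± 0.743 and Smad2 at 2.93 ± 0.361 CPM per kilobase. No neighbours in this order were separated, since their ranges over libraries overlapped in each case, and Tgfb3 exceeded Tgfb1 in 6 of 10 libraries. Exon lengths were those of all annotated transcripts joined, so a gene read mainly from short transcripts is understated. Some Tgfb3 exon bases are also annotated to the opposite-strand genes Gm37804 and Gm48008, and 8.79% of the 50-base stretches of its transcripts occur in other genes. For Tgfbr3 that share was 3.85%, all shared with the same-strand gene Gm43422, and for the other members it was at most 0.77%, so Tgfb3 and Tgfbr3 values carry this uncertainty of counting.

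The spread between libraries of a group differed widely among the members. The within-group SD of log2 CPM was 0.99 for Tgfb3, more than that of 94.9% of all genes tested, and 0.71 for Tgfb2 (86.2%) and 0.53 for Tgfb1 (71.6%). The SMADs were at the other end, with 0.27 for Smad3, 0.24 for Smad7, 0.22 for Smad4 and 0.18 for Smad2, the last above 7.64% of genes, beside a median of 0.39 over all genes. The ligands thus varied most between mice of the same genotype and the SMADs least. NLC-MI replicate 5 was the lowest of the 10 libraries for 5 members, and TgGRK5-MI replicate 4, with 9114469 counts, was the highest for 4.

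Ratios between members within a library do not depend on how libraries are scaled, and they overlapped between the groups in all 8 ratios examined. Per kilobase, Tgfb3 to Tgfb1 was 0.701 to 2.91 in NLC-MI and 0.667 to 2.68 in TgGRK5-MI. In both groups some libraries held more RNA of one isoform and some more of the other. Smad3 to Smad2 was 1.26 to 1.80 in NLC-MI and 0.788 to 1.73 in TgGRK5-MI, with medians of 1.44 and 1.10. The ratio of the inhibitory Smad7 to the effector Smad3 was 0.945 to 1.43 in NLC-MI and 0.754 to 1.42 in TgGRK5-MI. No test was made of these ratios.

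Across the 10 libraries, the members followed cell type markers to different degrees. Each member was correlated with the summed CPM of 7 lists of cell type markers, which makes 70 relations, and 3 of them passed a Benjamini-Hochberg adjusted permutation p under 0.10 by both Pearson's r and Spearman's rho. By r, 10 passed it, these 3 included. Among those past it by r and not by rho were Tgfb3 with the leukocyte (r = 0.825) and cardiomyocyte markers (r = -0.826). Tgfbr2 with the cardiomyocyte markers (r = -0.794) was another. Tgfb3 followed the fibroblast sum closely, with r = 0.98 (permutation p = 1e-05, the smallest the resamples can give, adjusted p = 0.0007) and rho = 0.927 (permutation p = 0.00032, adjusted p = 0.0224), and r was 0.98 again without the 2 libraries farthest from the median. That sum was mostly Col1a1 and Col1a2. They were at 6992 and 5824 CPM of 13412 CPM in NLC-MI replicate 2, and at 1183 and 932 CPM of 2429 CPM in NLC-MI replicate 5. Whether the other fibroblast markers alone give such relations was not tested. Tgfbr2 also rose with the fibroblast sum, with r = 0.855 (permutation p = 0.0018, adjusted p = 0.0315), rho = 0.842 (permutation p = 0.00373, adjusted p = 0.087) and r = 0.794 without the 2 farthest libraries. Tgfbr1 fell as the cardiomyocyte markers rose, with r = -0.865 (permutation p = 0.00152, adjusted p = 0.0315), rho = -0.855 (permutation p = 0.00265, adjusted p = 0.087) and r = -0.793 without the 2 farthest.

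These relations lay within the groups and not between them. With each group's mean taken out, r was 0.982 for Tgfb3, 0.856 for Tgfbr2 and -0.858 for Tgfbr1. The fibroblast sum, mostly Col1a1 and Col1a2, ran from 2429 to 13412 CPM in NLC-MI and from 2567 to 13301 CPM in TgGRK5-MI (exact permutation p = 0.984). The NLC-MI libraries with the highest Tgfb3, replicates 1 and 2, had fibroblast sums of 12581 and 13412 CPM, and the one with the lowest Tgfb3, replicate 5, had the lowest sum. Values of 1 library share its depth and scaling, and whether the cell composition of a preparation sets these levels was not tested.

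**Figure D3:**
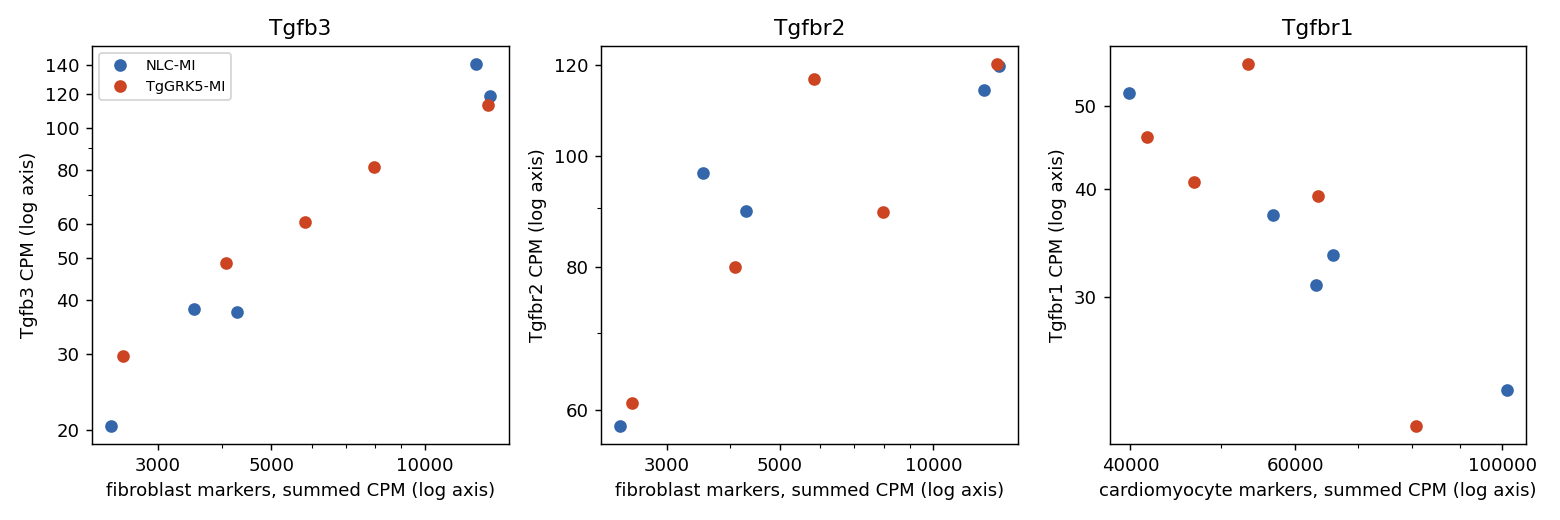
Tgfb3 and Tgfbr2 against the summed fibroblast markers, and Tgfbr1 against the summed cardiomyocyte markers, in CPM on log axes; each point is a library, NLC-MI in blue and TgGRK5-MI in red. Tgfb3 runs from 20.4 to 140.5 CPM along fibroblast sums of 2429 to 13412 CPM, with both groups on the same line.

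The other marker sums also overlapped between the groups. Cardiomyocyte markers summed to 39820 to 101221 CPM in NLC-MI and 41660 to 80765 CPM in TgGRK5-MI (exact permutation p = 0.563), and Ryr2 was the one cardiomyocyte marker past an unadjusted p of 0.05 (edgeR p = 0.00902, lower in TgGRK5-MI). Leukocyte markers summed to 518 to 1538 CPM in NLC-MI and 857 to 1747 CPM in TgGRK5-MI, a log2 difference of 0.47 (exact permutation p = 0.222), and all 6 had a log2 fold change above 0 with 0 past an unadjusted p of 0.05 (edgeR). Of the 6 mural markers, 5 had a log2 fold change below 0, and 2 passed an unadjusted p of 0.05, beside 2.08% of all genes lower at that p. These were Abcc9 (log2 fold change -0.67, edgeR unadjusted p = 0.0314, adjusted p = 1) and Cspg4 (log2 fold change -0.62, edgeR unadjusted p = 0.0497, adjusted p = 1), which lay in the same direction as Smad4, Smad7 and Tgfbr3. The mural sum had r = 0.389 with Smad4, 0.271 with Smad7 and 0.22 with Tgfbr3, none of which passed. Whether the RNA of Abcc9 and Cspg4 came from mural cells was not tested, nor was their part in those members' values. For the endothelial, mural, neutrophil and platelet sums the exact permutation p was 0.897, 0.238, 0.802 and 0.77. Neutrophil markers were low, at 9.75 to 30.4 CPM in sum, with Ly6g and Retnlg below the filter. Tgfb1 had r = 0.875 with the neutrophil sum and r = 0.816 with the platelet sum, with rho = 0.77 for each (permutation adjusted p = 0.104 for rho in each case). Tgfb2 was much alike, with r = 0.842 and rho = 0.794 for the neutrophil sum and r = 0.717 for the platelet sum. Tgfb1 also had r = 0.742 with the endothelial sum (permutation adjusted p = 0.0915), but only r = 0.209 with the leukocyte sum. Smad4 and Smad7, the members with the lowest p, had no relation to a marker sum that passed, with r between -0.36 and 0.514 for Smad4 and between -0.20 and 0.429 for Smad7. With each group's mean taken out, r ran from -0.655 to 0.671 for Smad4 and from -0.433 to 0.552 for Smad7, with no test made. For both genes the cardiomyocyte sum gave the lowest of these and the fibroblast sum the highest.

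**Figure D4:**
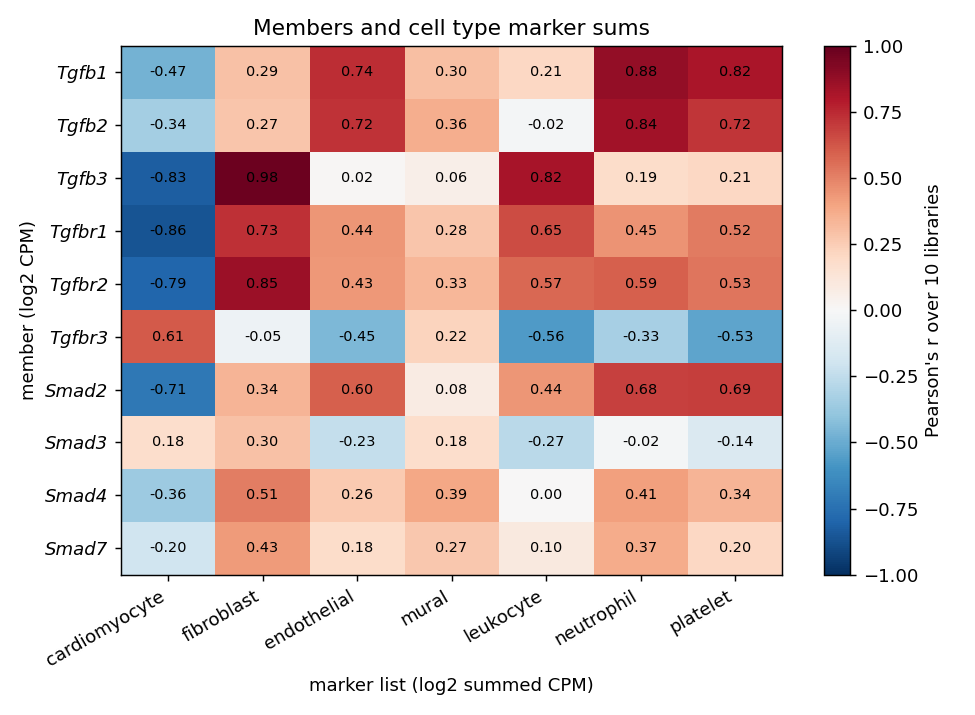
Pearson's r over 10 libraries between the log2 CPM of each member (rows) and the log2 summed CPM of each cell type marker list (columns); red is positive and blue negative. Tgfb3 with fibroblast markers (0.98) is the darkest cell, and the rows of Smad3, Smad4 and Smad7 are the palest.

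Pairs of members were correlated less firmly. Of 45 pairs, 37 had a Pearson's r above 0 and 5 passed an adjusted permutation p under 0.10 by r, but 0 did so by Spearman's rho. Tgfb1 and Tgfb2 had r = 0.902 (permutation p = 0.00069, adjusted p = 0.0294) and rho = 0.709 (permutation p = 0.0263, adjusted p = 0.202), and r = 0.706 without the 2 farthest libraries. The receptors Tgfbr1 and Tgfbr2, which act as 1 complex, had r = 0.857 (permutation p = 0.00196, adjusted p = 0.0294), rho = 0.648 (permutation p = 0.0493, adjusted p = 0.202) and r = 0.55 without the 2 farthest libraries. Tgfb3 with Tgfbr2 had r = 0.849, Tgfbr1 with Smad2 r = 0.788 and Tgfb3 with Tgfbr1 r = 0.779. These pairs share the libraries, and the relations rest in part on the extreme ones. In each group Tgfb1 and Tgfb2 were highest in the library with the fewest counts. These were NLC-MI replicate 3 (7968779 counts) and TgGRK5-MI replicate 4 (9114469 counts), and a part of depth in this pair was not tested.

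The genes with the most similar pattern were ranked by r over the 10 libraries with group means taken out, as a description with no test. The 3 nearest to Tgfb3 were Sfrp1 (r = 0.995), a secreted Wnt inhibitor, Cthrc1 (r = 0.992), a secreted protein of activated fibroblasts, and Postn (r = 0.99), the matricellular protein periostin. Nearest to Tgfbr2 were Myo1d (r = 0.991), Galnt4 (r = 0.985) and Loxl2 (r = 0.984), the last a collagen cross-linking enzyme, and nearest to Tgfbr1 were Ccdc50 (r = 0.987), Casp4 (r = 0.979), an inflammatory caspase, and Hspa13 (r = 0.978). Tgfb1 was followed by Sh3bgrl3 (r = 0.986), Rab8a (r = 0.986) and Trp53 (r = 0.979), which encodes p53, and Tgfb2 by Stk4 (r = 0.981), Mapk6 (r = 0.98) and Apbb1ip (r = 0.98).

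For the remaining members the nearest genes were less close. They were Efna5 (r = 0.948), Prickle1 (r = 0.93) and Castor2 (r = 0.906) for Tgfbr3, and Lman1 (r = 0.939), Cpd (r = 0.936) and 3300002I08Rik (r = 0.924) for Smad4. Smad2 was followed by Knop1 (r = 0.932), Eme1 (r = 0.924) and BC055324 (r = 0.919), Smad3 by Wnt5a (r = 0.906), Nfe2l3 (r = 0.906) and Zfp882 (r = 0.888), and Smad7 by Rnf180 (r = 0.932), Cwc25 (r = 0.902) and Pigz (r = 0.894). Several of these were scarce genes, such as 3300002I08Rik at a mean of 0.637 CPM and Pigz at 0.907 CPM.

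The rest of the pathway was described with 9 lists, 108 genes in all with each gene counted once, of which 97 were tested. At an adjusted p under 0.10 edgeR called 0 of 97. At an unadjusted p under 0.05 it called 1 higher and 3 lower, beside 1.77% and 2.08% of all genes, and the median log2 fold change was -0.0017. DESeq2 called 5 at an unadjusted p under 0.05, both directions together, beside 2.97% of the 28443 genes it gave a p, low-count genes included. No list gene had groups that did not overlap, beside 1.00% of all genes. The counts of single lists given below stand beside 3.85% of all genes tested with an unadjusted p under 0.05 by edgeR and 2.97% of those 28443 by DESeq2.

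Latency and release of the ligands were covered by 14 genes, of which 7 had a log2 fold change above 0, 7 below, and 1 passed an unadjusted p of 0.05. That gene was Furin, the protease that cleaves the TGF-beta precursors. Furin was at 91.9 to 133 CPM in NLC-MI and 74.4 to 98.3 CPM in TgGRK5-MI, with 4 NLC-MI libraries above every TgGRK5-MI library. The log2 fold change was -0.43 (standard error 0.14, edgeR unadjusted p = 0.0115, adjusted p = 1, exact permutation p = 0.0238), and it had an unadjusted p under 0.05 in 17 of 17 alternatives. Fbn1, the microfibril protein that anchors latent TGF-beta, had a log2 fold change of 0.08 (edgeR unadjusted p = 0.871).

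Among 20 known TGF-beta target genes, 13 had a log2 fold change above 0 and 7 below, with a median of 0.09, and 1 passed an unadjusted p of 0.05. This was Junb, an AP-1 subunit that many other stimuli also induce. Junb was at 271, 178, 169, 145 and 187 CPM in NLC-MI and at 92.9, 162, 108, 85.0 and 119 CPM in TgGRK5-MI, and TgGRK5-MI replicate 2 was the group's only library above the lowest of NLC-MI. The log2 fold change was -0.75 (standard error 0.21, edgeR unadjusted p = 0.00436, adjusted p = 0.77, exact permutation p = 0.0159), and it was under 0.05 in 17 of 17 alternatives. Col3a1, a fibrillar collagen, ran from 1312 to 7774 CPM in NLC-MI and 1199 to 8502 CPM in TgGRK5-MI (log2 fold change -0.10, edgeR unadjusted p = 0.878). Some targets, Col1a1 and Col1a2 among them, also serve as fibroblast markers here.

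Of the other ligands of the family, 11 of 15 were tested and 1 passed, Bmp7, a bone morphogenetic protein known to oppose TGF-beta. Bmp7 was scarce, at 0.985 to 2.75 CPM in NLC-MI and 1.99 to 5.21 CPM in TgGRK5-MI (log2 fold change 0.89, edgeR unadjusted p = 0.0256, adjusted p = 1). Its unadjusted p was 0.00791 to 0.084 over 17 alternatives and under 0.05 in 12. The stress-induced Gdf15 was at 18.1 ± 10.4 CPM (SD, n = 5) and 31.1 ± 9.52 CPM (SD, n = 5), with a log2 fold change of 0.78 and an edgeR unadjusted p of 0.0932. Bmp10, Gdf5, Mstn and Nodal were below the filter. Bmp10 was nonetheless at 30.9 CPM in NLC-MI replicate 5 and 5.64 CPM in TgGRK5-MI replicate 1, and at most 0.044 CPM in the other libraries. NLC-MI replicate 5 is also the library that was lowest for 5 members, and whether its preparation differed was not tested.

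Of the other receptors, 9 of 11 were tested and Acvr2b, an activin receptor, was lower at an unadjusted p of 0.0405 (log2 fold change -0.58, edgeR adjusted p = 1), at 1.498 to 2.67 CPM in NLC-MI and 0.969 to 1.61 CPM in TgGRK5-MI. Over 16 alternatives this p was 0.0253 to 0.125, and under 0.05 in 7. Endoglin, Eng, had a log2 fold change of -0.05 (edgeR unadjusted p = 0.773). Of the other 4 SMADs, edgeR called 0 at an unadjusted p under 0.05 and DESeq2 called 1, Smad9, beside 2.97% of the genes DESeq2 gave a p. Smad9, a receptor-activated SMAD of the BMP branch named here after its values were seen, was scarce, at 1.09 to 5.10 CPM in NLC-MI and 0.483 to 1.83 CPM in TgGRK5-MI (log2 fold change -0.92, edgeR unadjusted p = 0.0707, DESeq2 unadjusted p = 0.0488). The log2 fold change was -0.23 for Smad5 (edgeR unadjusted p = 0.186) and 0.09 for Smad1 (edgeR unadjusted p = 0.67).

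In the remaining lists, edgeR and DESeq2 each called 0 genes at an unadjusted p under 0.05. They held 16 SMAD regulators (8 above 0 and 8 below, with Usp9x at -0.07 and Ppm1a at 0.05), 7 secreted antagonists (6 above 0 and 1 below, with Bgn at 0.44 and Fstl1 at 0.08), 11 genes of the SMAD-independent branch (7 above 0 and 4 below, with Rhoa at 0.21 and Rock2 at 0.08) and 9 SMAD partners (3 above 0 and 6 below, with Zeb1 at -0.07 and Zeb2 at -0.04), all as log2 fold changes. Several genes stand in more than 1 list, so the counts of the lists overlap.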

How the data were processed

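Cardiomyocyte RNA of 5 NLC-MI and 5 TgGRK5-MI mice was measured 4 days after MI, and the labels give 1 library to each mouse. The authors deposited whole-number counts per Ensembl gene without normalization. Per the labels, libraries were made with an Illumina TruSeq kit, and the submitters' processing notes name Bowtie2, RSEM 1.2.31, DESeq2 and the build mm10 with no role, so the counts may be rounded RSEM estimates, which share reads between similar genes. The annotation version and the strand setting are not given in the sources used here, and GENCODE M21 on GRCm38 named 51596 of 51789 identifiers.

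In R 4.3.3, edgeR 4.0.16 normalized the counts with TMM, filtered them with filterByExpr and compared the groups with its quasi-likelihood F test, with p-values adjusted by Benjamini-Hochberg over 15232 genes, with calls at an adjusted p under 0.10. Log2 CPM used a prior count of 2, and a change of it to 0.5 altered no permutation p of a member. Single genes were also compared with a two-sided exact permutation test, and correlations with 100000 permutations. Alternatives were RLE factors, library size alone, DESeq2 1.42.0, limma-voom 3.58.1, other filters, the replicate number as a block and each library left out. Named were all members, of each pathway list the genes with an unadjusted p under 0.05 and, up to 2, those with the highest CPM, the 3 genes most like each member, and Grk5. Markers and Smad9 were named after their values were seen. Members and lists were chosen with earlier results of these data known. The statistics were tested on simulated data, in which 200 of 15232 genes had been changed. Changes of 2-fold were found at a rate of 44% with edgeR, 59% with DESeq2 and 40% with limma-voom. For 4-fold changes the rates were 90%, 98% and 88%. False positives made up 12.4% of the genes called with edgeR, 30.2% with DESeq2 and 11.7% with limma-voom. A 2-fold change of a gene could thus be missed by each tool, and DESeq2 had the largest share of false positives. In the shallowest library 3 counts are 0.393 CPM.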

Additional observations from a re-analysis of the deposited data

Results flagged for a closer look

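With 98.1 CPM of Tgfb2, TgGRK5-MI replicate 4 was far above the other 4 libraries of its group, which held 32.8 to 43.6 CPM. By Dixon's criterion it was the 1 such value among 20 sets of 5 libraries (10 members in each group), and chance alone gives about 1 in 20. That library had the fewest counts of its group, 9114469, and a part of depth in the value was not tested.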

How the results depend on the processing

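No member passed an adjusted p under 0.10 under any of the 17 alternatives. The number of members with an unadjusted p under 0.05, 0 with edgeR and TMM, was 1 with RLE size factors, 2 with DESeq2, 1 with limma-voom and 0 to 2 with each library left out. The 8 genes higher at an adjusted p under 0.10 became 13 with library size alone, 42 with DESeq2, 13 with no filter, 4 with at least 10 counts in every library and 2 to 7 with a library left out, and the 4 lower became 27 with DESeq2, 2 with limma-voom and 1 to 3 with a library left out. The log2 fold change of Tgfb3 turned to 0.14 with limma-voom. With each library left out it ran from -0.37 to 0.30 for Tgfb3, -0.18 to 0.078 for Tgfbr2, -0.54 to 0.048 for Tgfb2 and -0.13 to 0.23 for Tgfb1. The cause was not tested. The other 6 members kept their direction under all 17 alternatives.

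With the replicate number as a block, Tgfb3 was at 0.14, 7 in place of 4 pathway genes had an unadjusted p under 0.05, and the genes called were 5 higher and 3 lower. Same-numbered libraries, which come from different mice, deviated together with correlations of 0.0717, 0.662, 0.381, -0.341 and 0.0848, and 2 of 10 libraries correlated best with their own number, so the numbers were not taken to pair the samples.

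With 5 libraries a group, the size of a difference stays undetermined within the stated 95% intervals. These intervals are widest for Tgfb3 and Tgfb2, which varied most between libraries of a group.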
